A study of Mus musculus with 298 samples.

Results

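Neurons labelled silent in the recording were compared between day and night in the mouse suprachiasmatic nucleus (SCN), the hypothalamic seat of the circadian clock. The cells were chosen by their titles, which give the time, the firing label and the cFOS label, and 118 were used, after the near copy S71 was left out. They make up 39.6% of the deposited cells, which also hold 165 cells labelled active and 14 labelled depolarized. The 49 day silent cells (17 labelled cFOS+ and 32 labelled cFOS-) came from slices cut near ZT0, the time of lights on, and the 69 night silent cells (34 cFOS+ and 35 cFOS-) from slices cut near ZT12. Lights were on for 12 h and off for 12 h. Each neuron was patched, recorded for some minutes, and its cytoplasm was then taken up through the pipette and sequenced. The labels call the cells interneurons of the SCN and give no genotype, strain, sex or age. They name no animal and no slice, and 1 slice could give several cells, so each group counts as 1 sample. No difference below was tested, and a difference between times of day and one between animals or slices cannot be told apart.

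In SCN neurons the activators CLOCK and BMAL1 (gene Arntl) bind E-boxes and drive their own repressors, the PER and CRY proteins. They also drive the nuclear receptors REV-ERB alpha and beta (Nr1d1 and Nr1d2), which bind RRE elements and hold down Arntl, while the ROR receptors activate there. The same E-boxes and the D-boxes bound by DBP time output genes such as those of peptide signals. SCN neurons are mostly GABAergic and as a population fire faster by day, so cells that were silent by day and by night allow the time of day to be followed without a difference in the firing label.

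Values are counts per 1000000 reads (CPM), from the counts summed over the cells of a group unless a cell is named. Ratios are log2 of (CPM + 1) by day over (CPM + 1) at night, and folds are on that scale. Intervals are 95% intervals of counting error (exact Poisson for CPM, exact Clopper-Pearson for shares of cells) and hold no difference between animals, so they do not compare day with night. In a summed value, fewer cells with a gene and less of its RNA per cell cannot be told apart, so the cells are given beside it.

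The silent cells had 3757401 to 14129853 reads by day (median 6256623) and 3239417 to 25535298 at night (median 6371982). A median of 4738 genes was detected by day and 4411 at night, or 4527 and 4476 after every cell was thinned to 4000000 reads, which left out 3 day and 5 night cells. Summed neuron markers reached at least 1566 CPM in every day cell and 1784 CPM in every night cell, so each library carried neuronal RNA. Of the GABA markers, Gad1 summed to 1190 CPM in day silent and 1129 CPM in night silent neurons, whereas Slc32a1, the vesicular GABA transporter, summed to 8.73 CPM in day silent and 12.5 CPM in night silent neurons. The cell S71, a near copy of S70 with the opposite cFOS label (r of log2 values 0.9995 across genes, against at most 0.679 between other silent cells), is not counted. Of 8783 genes with at least 20 CPM in 1 group, 876 (9.97%) were at least 2-fold higher by day and 893 (10.2%) at least 2-fold lower. Among cFOS+ cells 15.7% of 8821 genes were at least 2-fold higher by day and 19.8% lower, and among cFOS- cells 16.1% and 15.8% of 8846 genes. At least 2-fold in the same direction in the pool, in both cFOS labels and leaving out each group's top cell were 3.26% of the 8783 genes on the higher side and 4.03% on the lower side. The ratios of the cFOS labels shared their sign in 51.8% of the 8783 genes.

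Clock genes stood higher by day in silent neurons, above all the targets of the E-box. Of 27 clock genes with at least 5 CPM in 1 group, 20 were higher by day (median log2 ratio 0.46). Over all 11866 genes at that level 48.1% were higher by day, with a median of -0.03. Of 15 genes listed as E-box targets 13 were higher by day (median 0.98), and 7 of them by at least 2-fold, beside 9.97% of all genes, and none was at least 2-fold lower, beside 10.2%. Without the top cells the calls over all genes split to 34.9% higher by day, in place of 49.5%. Summed over the 15, single cells ran from 122.5 to 8974 CPM by day around a median of 2281, and from 8.56 to 4619 CPM at night around a median of 1398. The ranges overlapped, with 31 of 49 day cells above the night median and 10 of 69 night cells above the day median.

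**Figure D1:**
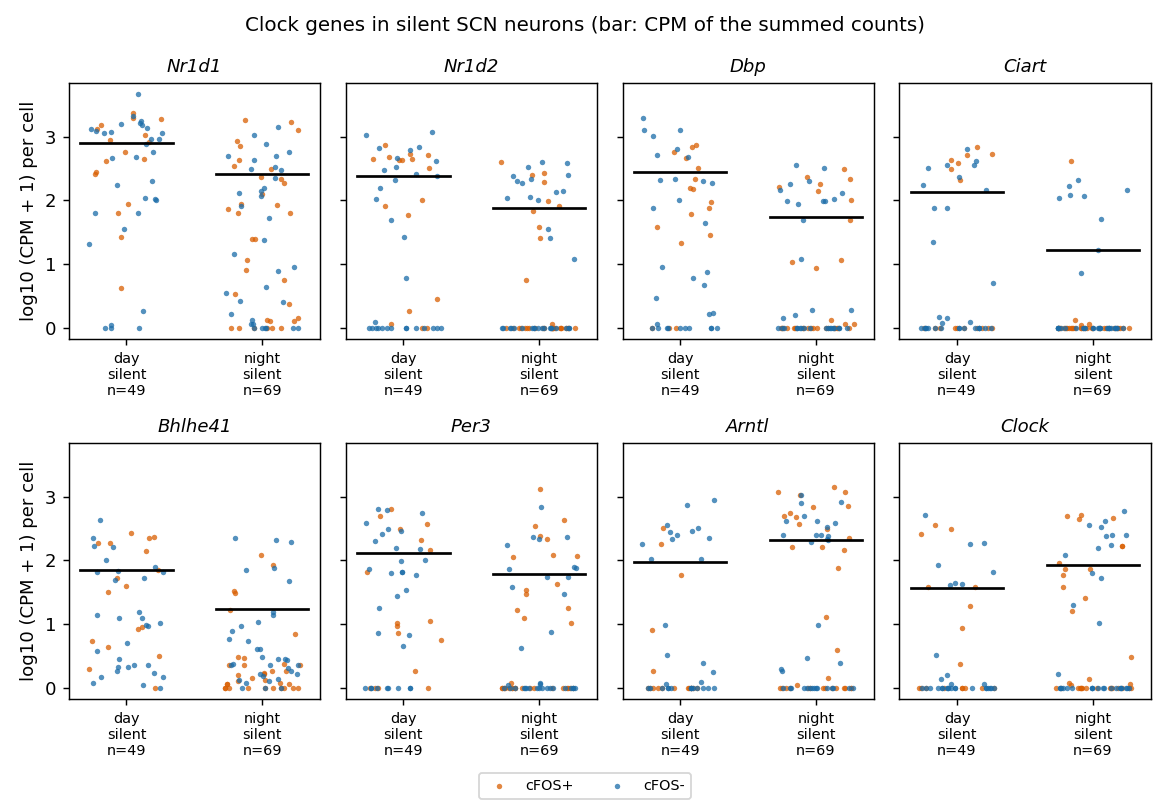
Level of 8 clock genes in every silent cell, as log10 (CPM + 1), by day (left, n = 49) and at night (right, n = 69). Points are cells coloured by cFOS label and bars are the CPM of the summed counts. The bars of Nr1d1, Nr1d2, Dbp, Ciart, Bhlhe41 and Per3 are higher by day, those of Arntl and Clock lower, and every panel has cells at or near 0 in both groups.

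Nr1d1, the gene of REV-ERB alpha, on chromosome 11 from 98767932 to 98775333, was higher by day in both cFOS labels. Across day cells its level had a lowest value of 0, a median of 565.3 and a highest value of 4589 CPM, against 0, 23.9 and 1804 CPM across night cells. Summed, it stood at 795.6 CPM (792.6 to 798.6) by day, against 262.2 CPM (260.7 to 263.6) at night, or 1.60 on the log2 scale. At least 100 CPM was found in 36 of 49 cells by day (73.5%, 58.9 to 85.1%) and 27 of 69 at night (39.1%, 27.6 to 51.6%), and the levels of single cells overlapped. The ratio was 1.64 among cFOS+ and 1.59 among cFOS- cells. Its relative Nr1d2 (chromosome 14, 18204054 to 18239127) had a median of 81.9 and a highest value of 1193 CPM across day cells, against 0 and 399 CPM across night cells, with 0 as the lowest value of both. Its summed level was 239.5 CPM by day, against 75.95 CPM at night, or 1.64 on the log2 scale, with 2.43 among cFOS+ and 1.16 among cFOS- cells. Split by cell number, Nr1d2 differed by 0.79 on the log2 scale in the lower-numbered cells and 2.46 in the higher-numbered ones, and Nr1d1 by 1.12 and 2.12.

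Dbp, a PAR bZIP factor that carries clock time to output genes through the D-box (chromosome 7, 45705088 to 45710203), ran from 0 to 1946 CPM by day around a median of 42.4, and from 0 to 359 CPM at night around a median of 0. Its summed level of 277 CPM by day, against 52.97 CPM at night, gave a 5.15-fold difference (log2 2.36), with 2.54 among cFOS+ and 2.17 among cFOS- cells. Ciart, a repressor of CLOCK and BMAL1 (chromosome 3, 95878503 to 95882251), had the largest ratio of the clock genes, with 133 CPM by day, against 15.7 CPM at night (8.03-fold, log2 3.01). Its median cell was at 0 in both groups, so the difference lay in a minority of cells. The highest cell had 679 CPM by day, against 406.2 CPM at night, and at least 100 CPM was found in 15 day cells (30.6%, 18.3 to 45.4%) and 7 night cells (10.1%, 4.18 to 19.8%). Bhlhe41, or DEC2, a repressor that competes for E-boxes (chromosome 6, 145858243 to 145865558), had 69.2 CPM by day, against 16.4 CPM at night (log2 2.01), and the ratio was 2.99 among cFOS+ and 1.40 among cFOS- cells. Its cells ran from 0 to 431.3 CPM by day (median 11.2) and from 0 to 226 CPM at night (median 1.24). These 5 genes and Rorb were the 6 clock genes at least 2-fold higher by day in the pool, in both cFOS labels and without the top cells, against 3.26% of all genes. No clock gene met that rule on the lower side, against 4.03% of all genes.

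The activator genes Arntl and Clock were lower by day, by less than 2-fold among lower cell numbers (-0.69 and -0.62). Arntl (chromosome 7, 113207465 to 113314126) ran from 0 to 881 CPM across day cells with a median of 0, and from 0 to 1425 CPM across night cells with a median of 1.88. Summed, it was at 92.9 CPM by day, against 208 CPM at night (log2 -1.15), with -2.40 among cFOS+ and -0.51 among cFOS- cells. Clock was at 35.6 CPM by day, against 82.4 CPM at night (log2 -1.19), -0.51 among cFOS+ and -1.70 among cFOS- cells. The cells with at least 100 CPM were 14 by day (28.6%, 16.6 to 43.3%) and 30 at night (43.5%, 31.6 to 55.96%) for Arntl, and 6 by day and 16 at night for Clock. Of the 5 genes listed as RRE targets, only the repressor Cry1 was higher by day (171 against 148 CPM, log2 0.20, and -0.48 without the cells that carry microglia markers described below). Npas2, a stand-in for CLOCK, had 4.02 CPM by day, against 11.3 CPM at night with opposite signs in the cFOS labels. Nfil3, which represses through the D-box, had 51.97 against 92.8 CPM, but its log2 ratio of -0.82 was 0.05 among higher cell numbers, 0.66 without cells carrying microglia markers and -0.08 without the deepest night cell. Rorb, an activator at the RRE and a marker of the SCN, had 371 CPM by day, against 124 CPM at night (log2 1.57), and was higher by day in both cFOS labels (1.24 and 2.10), while Rora had a ratio of 0.24.

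The PER and CRY genes differed less. Per3 was at 127.7 CPM by day, against 59.3 CPM at night (log2 1.09), Cry2 at 462 and 308 CPM (0.58), and Per1 at 62.4 and 56.4 CPM (0.14). For Per1, 1 night cell held 39.5% of the night reads, and the ratio was 0.77 without that cell, the deepest one at night. After thinning, 89.1% of day and 59.4% of night cells had a read, and the log2 ratio was -0.25 among lower and 1.93 among higher cell numbers. Per2 stood at 199.6 CPM by day, against 226 CPM at night (-0.18), with 0.38 among cFOS+ and -0.60 among cFOS- cells. Bhlhe40, or DEC1, was at 80.8 against 25.8 CPM (1.61), the PAR bZIP factor Hlf at 56.7 against 28.2 CPM (0.98) and its relative Tef at 69.03 against 84.96 CPM (-0.30). The deubiquitinase Usp2 had a ratio of 0.42. Among the proteins that set PER and CRY turnover, the kinase genes Csnk1e and Csnk1d had ratios of 0.32 and -1.10, and the ubiquitin ligase gene Fbxl21 0.71, each with opposite signs in the cFOS labels. Csnk1d held 43.4% of its night reads in 1 cell, and its ratio was -0.37 without the deepest night cell. Timeless (1.12) and Arntl2 (1.60) were below 20 CPM in both groups and rested on few cells.

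**Figure D2:**
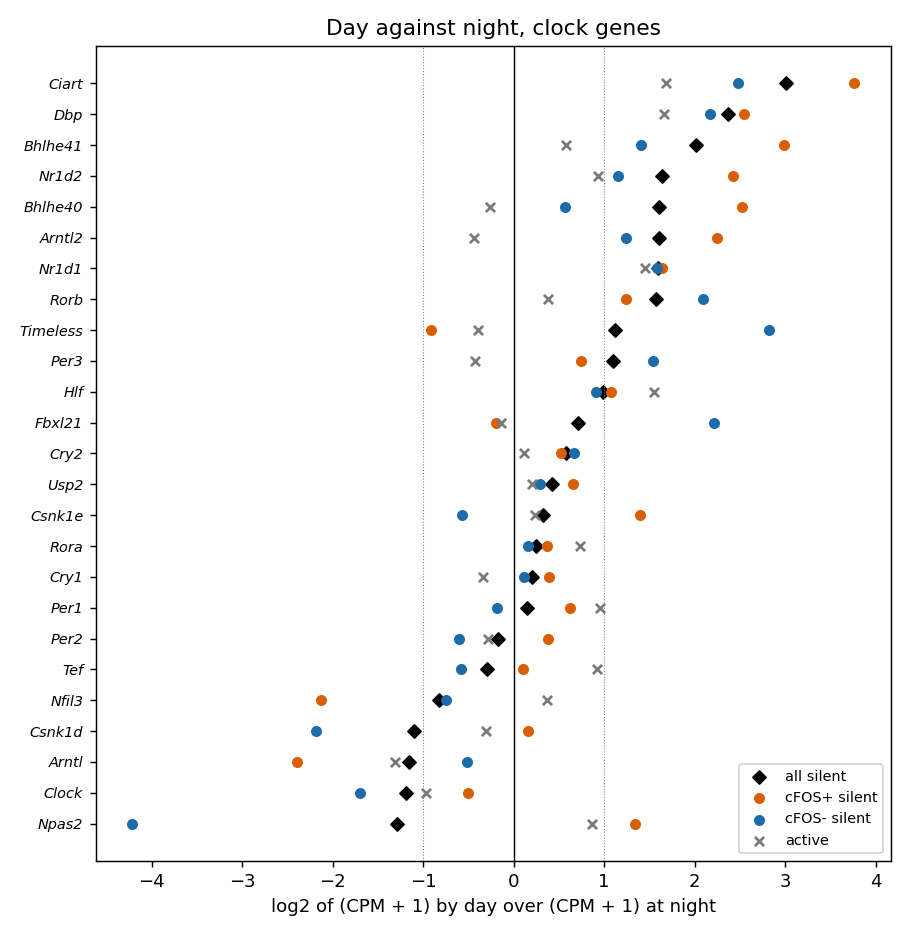
Log2 ratio of (CPM + 1) by day over night for the clock genes shown, sorted by the value in all silent cells (black diamonds), with cFOS+ silent cells (orange), cFOS- silent cells (blue) and active cells (grey crosses). Dotted lines mark 2-fold. Ciart, Dbp, Bhlhe41, Nr1d2 and Nr1d1 lie right of 0 in all 4 sets, Arntl and Clock left of it in all 4, and Npas2 is split from 1.34 to -4.22 between the cFOS labels.

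The promoters of the genes that stood apart most were read for clock elements, since the E-box, D-box and RRE are the sites through which these genes are timed. RefSeq promoters (build GRCm38.p6, from 250 bases before to 50 after each start) matched 22 of the 27 clock genes with 31 starts, and Avp, Prok2, Vip, Rgs16 and Fos were added. CACGTG, the E-box, was found in 6 of the 31 and in 7.15% of all 32851 promoters. TTATGTAA, the D-box, was found in 2 of the 31 and in 0.938% of all, TAGGTCA, the core of the RRE, in 2 and in 2.61%, and TGACGTCA, the CRE, in 1 and in 1.79%, on either strand and with no match overlapping another. The 250 bases before the start are printed 5' to 3' on the strand of the gene, with the motif in capitals, for the genes at 20 CPM or more with a motif before the start and a day-night ratio of at least 2-fold. Ciart holds 3 E-boxes (chr3:95882229-95882478, minus strand), with first bases 116, 58 and 44 before the start. Bhlhe41 holds 1 E-box 153 before the start (chr6:145865421-145865670, minus strand), and Per3 holds a pair of D-boxes (chr4:151044666-151044915, minus strand). Prok2 (chr6:99726393-99726642, minus strand) and Avp (chr2:130582589-130582838, minus strand), a pair of peptide genes, hold 1 E-box each, 135 and 139 before the start.
Ciart: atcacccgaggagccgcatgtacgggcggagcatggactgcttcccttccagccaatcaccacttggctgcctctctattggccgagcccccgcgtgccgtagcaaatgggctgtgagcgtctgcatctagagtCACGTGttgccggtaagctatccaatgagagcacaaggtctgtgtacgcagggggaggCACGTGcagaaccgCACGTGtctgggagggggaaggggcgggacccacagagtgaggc
Bhlhe41: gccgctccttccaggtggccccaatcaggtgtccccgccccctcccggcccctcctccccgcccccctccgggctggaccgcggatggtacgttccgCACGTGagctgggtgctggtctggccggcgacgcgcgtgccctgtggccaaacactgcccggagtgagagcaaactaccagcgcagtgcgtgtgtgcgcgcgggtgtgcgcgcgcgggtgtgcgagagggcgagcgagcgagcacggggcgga
Per3: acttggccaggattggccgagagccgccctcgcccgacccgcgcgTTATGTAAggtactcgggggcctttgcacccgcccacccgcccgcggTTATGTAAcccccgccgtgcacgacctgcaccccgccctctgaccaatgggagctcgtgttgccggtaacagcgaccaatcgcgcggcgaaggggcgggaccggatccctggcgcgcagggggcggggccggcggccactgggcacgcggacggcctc
Prok2: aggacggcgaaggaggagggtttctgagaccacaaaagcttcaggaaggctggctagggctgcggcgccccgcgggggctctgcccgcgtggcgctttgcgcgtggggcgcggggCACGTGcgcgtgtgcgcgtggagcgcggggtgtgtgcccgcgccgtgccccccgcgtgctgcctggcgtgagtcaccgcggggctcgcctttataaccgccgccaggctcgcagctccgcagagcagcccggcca
Avp: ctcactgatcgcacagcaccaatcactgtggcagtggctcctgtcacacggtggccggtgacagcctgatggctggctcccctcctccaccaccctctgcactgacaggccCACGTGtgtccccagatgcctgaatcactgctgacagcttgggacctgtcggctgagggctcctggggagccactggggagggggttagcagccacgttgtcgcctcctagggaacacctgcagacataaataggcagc
Timeless, with a ratio of 1.12 but below 20 CPM, holds a D-box before its start. Arntl, at -1.15, holds an RRE core past 1 of its starts, with its first base at position 31. The RRE core of Nfil3 and the CRE of Hlf stand beside ratios of -0.82 and 0.98. The windows of Nr1d1, Nr1d2, Dbp, Rorb, Arntl2 and Rgs16, all at least 2-fold higher by day, hold none of the 4 motifs, and neither do those of Clock, Npas2 and Vip, at least 2-fold lower by day, or that of Fos. One start of Per1, that of Cry1 and both starts of Tef hold an E-box at ratios of 0.14, 0.20 and -0.30. A match is a description of these letters and was not tied to binding.

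Firing cells gave the nearest comparison. Of the 27 clock genes, 20 were higher by day in silent and 17 in active cells (78 day against 87 night cells), with medians of 0.46 and 0.37. Nr1d1 had nearly the same ratio in silent (1.60) and active cells (1.45), and Arntl too (-1.15 and -1.31). For others the ratios were further apart: Per3 was at 1.09 in silent and -0.43 in active cells, Bhlhe40 at 1.61 and -0.27, Rorb at 1.57 and 0.38, and Bhlhe41 at 2.01 and 0.58. For Per3 the levels were 127.7 and 59.3 CPM in day and night silent cells, and 58.2 and 78.8 CPM in day and night active cells. The difference between silent and active cells was not tested.

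Peptide genes differed in both directions. Of 15 measured, 8 were higher by day (median 0.97), and 9 were at least 2-fold the same way in the pool, in both cFOS labels and without the top cells. That median is the smallest ratio of the 8. It was 0.39 among cFOS+ and 0.27 among cFOS- cells, and 0.36 with a lower minimum level. Without the cells that carry microglia markers it was 0.06, and in active cells -0.49. Of these 9, 5 were higher by day (Avp, Prok2, Pdyn, Nts and Cartpt) and 4 lower (Vip, Sst, Gal and Adcyap1), against 3.26% and 4.03% of all genes. Each peptide was found at 100 CPM or more in a minority of cells, so its summed value rests on those cells.

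Avp, vasopressin, a signal of the SCN shell and a clock-controlled gene (chromosome 2, 130580620 to 130582554), ran from 0 to 50094 CPM across day cells around a median of 15.97, and from 0 to 19777 CPM across night cells around a median of 0.26. Its summed level was 5759 CPM by day (5751 to 5767), against 1435 CPM at night (1432 to 1439), 4.01-fold apart, and the ratio was log2 2.01 in cFOS+ and 2.11 in cFOS- cells, and 1.82 leaving out each group's top cell. The share of cells with at least 100 CPM was close, at 22 of 49 by day (44.9%, 30.7 to 59.8%) and 27 of 69 at night (39.1%, 27.6 to 51.6%). At least 1000 CPM was found in 19 cells of each group (38.8% by day and 27.5% at night). In active cells Avp was at 2247 CPM by day, against 1030 CPM at night, so day silent cells carried the highest level of the 4 sets. Nms, neuromedin S, found with Avp in the SCN, was at 487.5 against 234.3 CPM (log2 1.05), mainly among cFOS+ cells (1.90, against 0.19 among cFOS- cells), and at least 100 CPM was found in 21 day and 26 night cells.

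Prok2, prokineticin 2, a secreted output signal of the SCN driven through E-boxes (chromosome 6, 99711299 to 99726392), ran from 0 to 652 CPM across day cells and from 0 to 121.8 CPM across night cells, with a median of 0 in both. Summed, it was at 74.7 CPM by day, against 4.51 CPM at night (13.7-fold, log2 3.78), with 3.82 among cFOS+ and 3.65 among cFOS- cells and values from 3.07 to 4.53 under every alternative run. At least 100 CPM was found in 9 day cells (18.4%, 8.76 to 32.02%) and 1 night cell (1.45%, 0.04 to 7.81%). Active cells had 79.8 CPM by day, against 21.1 CPM at night. Pdyn, the dynorphin precursor, was at 27.1 CPM by day, against 2.31 CPM at night, from 4 day cells and 1 night cell with at least 100 CPM, and that night cell held 99.6% of the night reads.

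Vip, the core peptide that couples SCN neurons (chromosome 10, 5639218 to 5647617), was scarce in day silent cells. Its highest cell had 17856.5 CPM by day, against 52743 CPM at night, and the lowest and median cells of both groups were at 0. Summed, it stood at 271.7 CPM by day, against 1768 CPM at night (log2 -2.70), with -1.59 among cFOS+ and -5.18 among cFOS- cells. The day value rested on 1 cell, which held 90.6% of the day reads, and the ratio was -5.42 leaving out each group's top cell. At least 100 CPM was found in 2 of 49 cells by day (4.08%, 0.50 to 13.98%) and 11 of 69 at night (15.9%, 8.24 to 26.7%), and the log2 ratio was -0.14 among lower and -11.5 among higher cell numbers. Active cells held 2781 CPM by day, against 3914 CPM at night. Sst, somatostatin, showed the widest gap, 2.69 CPM by day against 208 CPM at night (log2 -5.82), but 3 night cells held at least 100 CPM, the top one 64.1% of the night reads, and the ratio was 1.96 among higher cell numbers. Gal (37.5 against 155.5 CPM) and Adcyap1 (14.9 against 59.6 CPM), the genes of galanin and PACAP, were lower by day in both cFOS labels, with 58.6% and 52.4% of their night reads in 1 cell each. Trh and Grp, at 606 against 1500 CPM and 32.7 against 69.7 CPM, had 1 day cell with nearly all day reads. None of the 13 peptides was at 100 CPM in 7 day cells (14.3%, 5.94 to 27.2%) and 11 night cells (15.9%, 8.24 to 26.7%).

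**Figure D3:**
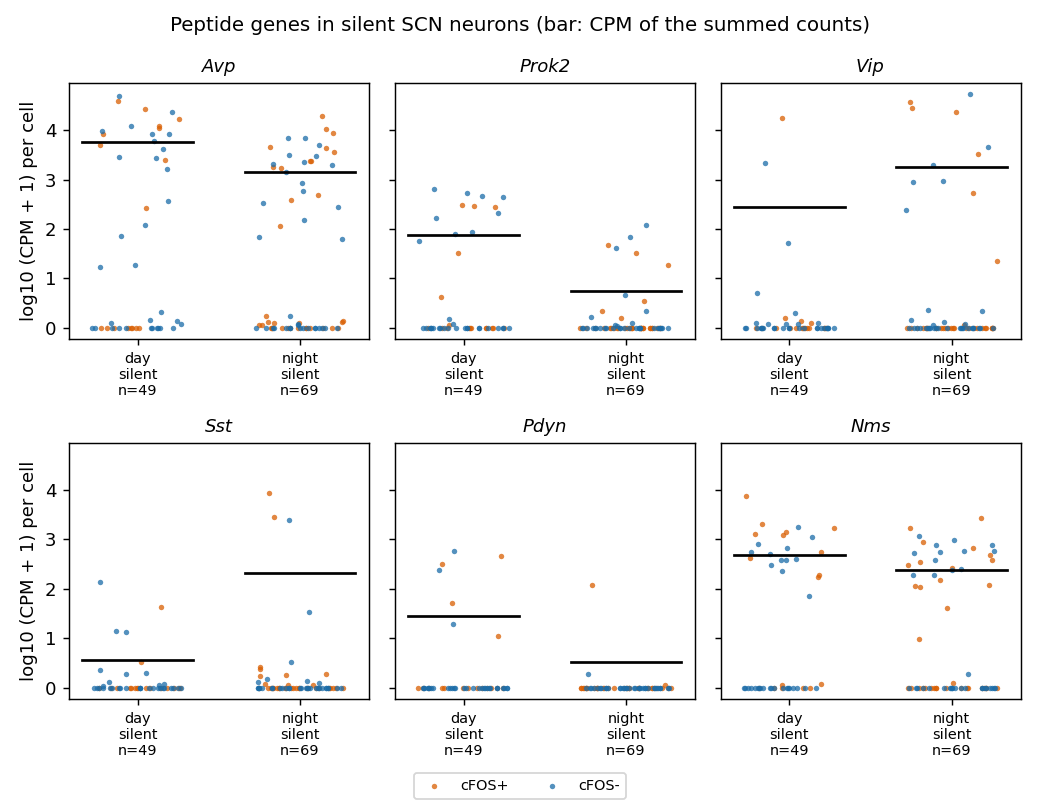
Level of 6 peptide genes in every silent cell, as log10 (CPM + 1), by day (left, n = 49) and at night (right, n = 69), with points coloured by cFOS label and bars at the CPM of the summed counts. Avp is on in 22 day and 27 night cells at 100 CPM or more and reaches higher levels by day; Prok2 is seen at that level in 9 day cells and 1 night cell, and Vip in 2 day and 11 night cells.

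Of the receptors for these peptides 4 of 14 measured were higher by day (median -0.38), or 7 of 23 with a lower minimum level. Of 7 at 20 CPM or more, 1 was at least 2-fold higher and 3 at least 2-fold lower, beside 9.97% and 10.2% of all genes. Leading members of this and the later lists were named where their sign agreed in both cFOS labels, so that agreement is no support. Oprl1, the nociceptin receptor, was at 125 CPM by day, against 274.1 CPM at night (log2 -1.13), lower by day in both cFOS labels, and at least 100 CPM was found in 15 day and 36 night cells. Npy2r was at 31.1 against 8.43 CPM (1.77), in both labels, while Npy5r was at 3.94 against 25.97 CPM with a ratio of 1.61 among lower cell numbers. The prokineticin receptor Prokr2 (156 against 199.1 CPM) ran from -7.16 among cFOS+ to -0.07 among cFOS- cells, and the VIP receptor Vipr2 (232.9 against 283.9 CPM) from -2.44 to 0.20. Transcription factors that mark the SCN were higher by day in 8 of 14 cases (median 0.15). Beside Rorb, Tshz2 had 80.6 against 31.2 CPM, but its ratio of 1.34 was -0.43 without the cells that carry microglia markers. Lhx1, a regulator of peptide genes in the SCN, had 24.5 against 47.4 CPM (-0.93, and 0.55 among lower cell numbers), and Id4 104 against 189.1 CPM (-0.86).

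Genes of cAMP and calcium signalling, the route by which peptides and light reach the clock, had 18 of 30 members higher by day (median 0.10). At least 2-fold higher were 5 of 26 at 20 CPM or more, and 1 was at least 2-fold lower, beside 9.97% and 10.2% of all genes. Rgs16, a G protein regulator with a known rhythm in the SCN shell, was at 98.8 CPM by day, against 25.5 CPM at night (log2 1.91), from 1.04 among cFOS+ to 2.50 among cFOS- cells, and from 1.69 to 2.07 under every alternative run. Its cells ran from 0 to 800 CPM by day (median 0.21) and from 0 to 430 CPM at night (median 0). The phosphodiesterase gene Pde10a was at 218 against 77.5 CPM (1.48), the adenylyl cyclase gene Adcy6 at 58.4 against 21.9 CPM (1.37), and Gem, a small GTPase that is induced by activity and restrains calcium channels, at 367 against 121 CPM (1.59, 0.53 among lower and 2.56 among higher cell numbers). Each was higher by day in both cFOS labels, which was a condition for naming them. Rasd1, a Ras-like protein that acts on light input to the SCN, was the member at least 2-fold lower by day, at 248.7 CPM by day, against 537.01 CPM at night (-1.11), with 15 day and 34 night cells at 100 CPM or more.

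Ion channel lists had no common direction. Of 12 sodium channel genes 9 were higher by day (median 0.29), but 4 without cells that carry microglia markers. The beta subunit Scn3b was at 43.7 CPM by day, against 124 CPM at night (log2 -1.48), at least 2-fold lower by day also in both cFOS labels and without the top cells, and 9 day and 22 night cells had at least 100 CPM. Scn2a1, the gene of the channel Nav1.2, was at 120.4 against 52.8 CPM (1.17), but at 0.22 without those cells. Among voltage-gated potassium channel genes 7 of 22 were higher by day (median -0.21), a count that was 12 after thinning. Of 14 at 20 CPM or more, 2 were at least 2-fold higher and none at least 2-fold lower, beside 9.97% and 10.2% of all genes. The 2 were the auxiliary subunits of A-type channels Kcnip4 (168 against 51.4 CPM, 1.69) and Kcnip1 (74.6 against 33.4 CPM, 1.14). Each was named for a sign that agreed in cFOS+ and in cFOS- cells. Calcium-activated, inward rectifier and leak channels were higher by day for 8 of 17. Kcnk2, the leak channel TREK-1, was at 31.2 against 9.68 CPM (1.59, with 68.7% of the night reads in 1 cell) and the small-conductance channel Kcnn3 at 15.2 against 36.4 CPM (-1.21), while Kcnj3 (36.1 against 6.67 CPM) had 66.8% of its day reads in 1 cell. The large-conductance channel Kcnma1, whose message is known to be higher at night in the SCN, was at 37.6 against 49.3 CPM (-0.38).

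Calcium and HCN channel genes were higher by day for 13 of 24 (median 0.05). The L-type channel gene Cacna1c was at 57.3 CPM by day, against 30.1 CPM at night (log2 0.91, and -1.72 in active cells) and the T-type gene Cacna1g at 81.5 against 153 CPM (-0.90). Cacna1i (20.3 against 0.33 CPM) rested on 2 day cells, the top one with 68.3% of the day reads. GABA-A receptor and chloride transporter genes, which set whether GABA excites or inhibits, were higher for 13 of 21 (median 0.09). The receptor subunits Gabrq, at 114 against 36.9 CPM (1.60), and Gabra3, at 64.9 against 24.7 CPM (1.36), were higher by day in both cFOS labels, as their choice required. Glutamate receptor genes were higher for 8 of 18 (median -0.08), with the metabotropic receptor Grm5 (58.95 against 25.3 CPM, 1.19, but 0.01 without cells that carry microglia markers) on the higher side and the NMDA receptor subunit Grin3a (13.4 against 43.7 CPM, -1.63) on the lower.

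**Figure D4:**
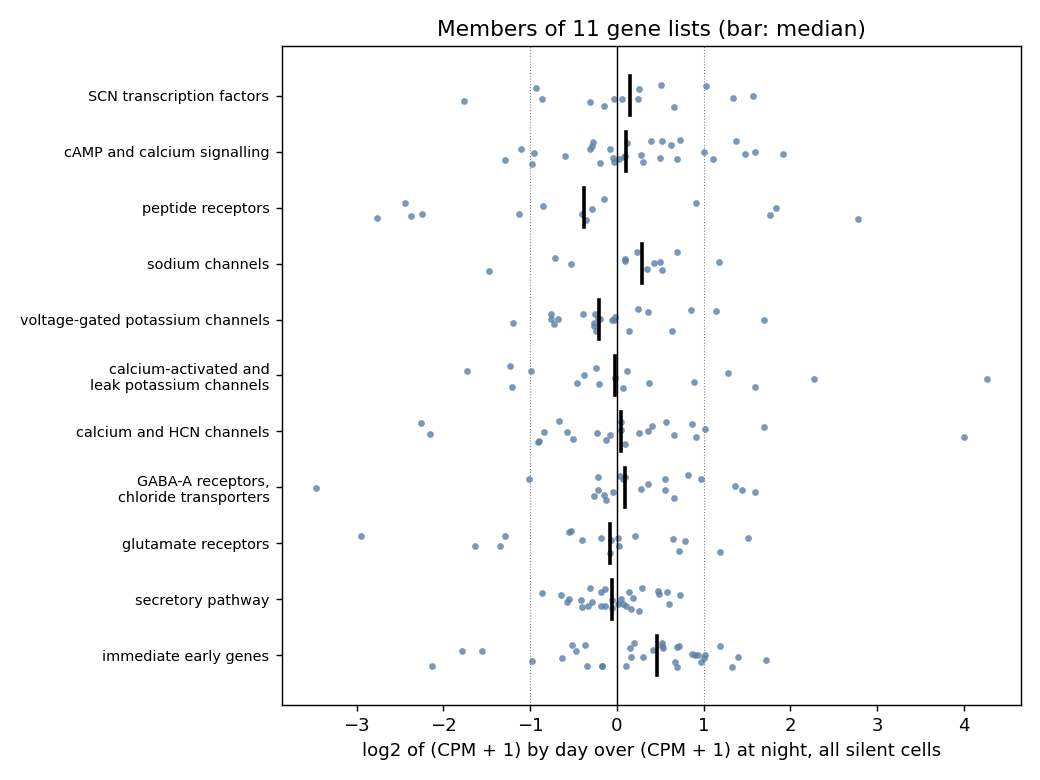
Log2 ratio of (CPM + 1) by day over night in all silent cells for the members of 11 gene lists, 1 point per gene with at least 5 CPM in 1 group, with the list median as a bar and dotted lines at 2-fold. The medians lie between -0.38 (peptide receptors) and 0.46 (immediate early genes), and every list has members on both sides of 0. The leak channel gene Kcnk13, without a read at night, is drawn at its ratio on this scale.

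Immediate early genes, which follow recent activity and calcium entry, had 23 of 34 members higher by day (median 0.46), with 27 of 34 among cFOS+ cells (median 0.88) and 17 of 34 among cFOS- cells (median -0.01). Over all genes at 5 CPM or more, 44.6% were higher by day among cFOS+ and 49.6% among cFOS- cells. Summed per cell the immediate early genes ran from 1087 to 40519 CPM by day (median 6469) and from 567.6 to 45780 CPM at night (median 4980). Above the median of the other group were 30 of 49 day cells and 27 of 69 night cells. Of 30 members at 20 CPM or more, 6 were at least 2-fold higher by day and 2 at least 2-fold lower, beside 9.97% and 10.2% of all genes. No member was at least 2-fold the same way in the pool, in both labels and without the top cells. Over all genes those shares were 3.26% higher and 4.03% lower. The orphan receptor Nr4a1 was at 73.8 CPM by day, against 27.3 CPM at night (log2 1.40). One night cell, the deepest, held 56.4% of its night reads, and the ratio was 2.46 without that cell, 0.57 among lower and 3.84 among higher cell numbers. Among the others were the AP-1 subunit Junb at 610 and 304 CPM (1.01), the antiproliferative gene Btg2 at 167 and 89.0 CPM (0.90), and the zinc finger factor Klf6 at 162.4 and 88.8 CPM (0.86). The phosphatase gene Dusp5 was at 11.7 CPM by day, against 36.2 CPM at night (-1.56) and the synaptic gene Arc at 71.2 and 247.8 CPM (-1.79, with 53.4% of the night reads in 1 cell). Egr1 was at 1442 and 1626 CPM. Fos itself ran from 0 to 8006 CPM by day (median 1335) and from 0 to 9749 CPM at night (median 915), with summed levels of 2576 and 1780 CPM (log2 0.53). By label it was at 2014 CPM in cFOS+ and 2882 CPM in cFOS- day cells, and at 1552 CPM in cFOS+ and 1990 CPM in cFOS- night cells. The summed level was thus lower in the libraries labelled cFOS+ at both times, although at night their median cell was higher (1093 CPM, against 873 CPM in cFOS- cells). The sources used here do not say how the cFOS label was set.

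Nuclear genes of oxidative phosphorylation, the respiratory chain and ATP synthase, were mostly slightly lower by day. Of 41 members 7 were higher by day (median log2 ratio -0.26), beside 48.1% of all genes and a median of -0.03. None was 2-fold either way, beside 9.97% of all genes at least 2-fold higher and 10.2% lower. The ratios ran from -0.71 for the complex I subunit Ndufv1 (167 CPM by day, against 273.8 CPM at night) to 0.29 for Uqcrfs1 of complex III (239.2 and 196.05 CPM). Cox4i1 of complex IV was at 498.8 and 711 CPM (-0.51), and the complex I subunits Ndufs6 and Ndufs1 were at -0.52 and -0.48. Per cell the summed level ran from 3153 to 17169 CPM by day (median 9226) and from 4263 to 35253 CPM at night (median 9577), so the groups overlapped. In active cells 29 of the same 41 genes were higher by day (median 0.12), a difference between silent and active cells that was not tested. The count was not stable: 11 of 41 were higher by day in each cFOS label, 18 (median -0.06) among lower and 5 (median -0.39) among higher cell numbers, and 20 (median -0.02) without cells that carry microglia markers. Of 9 genes encoded in mitochondria 1 was higher by day (median -0.17), with 0 among cFOS+ and 7 among cFOS- cells. The sodium-potassium pump, a main consumer of the ATP made there, was higher for 5 of 9, with its regulator Fxyd6 at 513.2 against 759 CPM (-0.56).

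**Figure D5:**
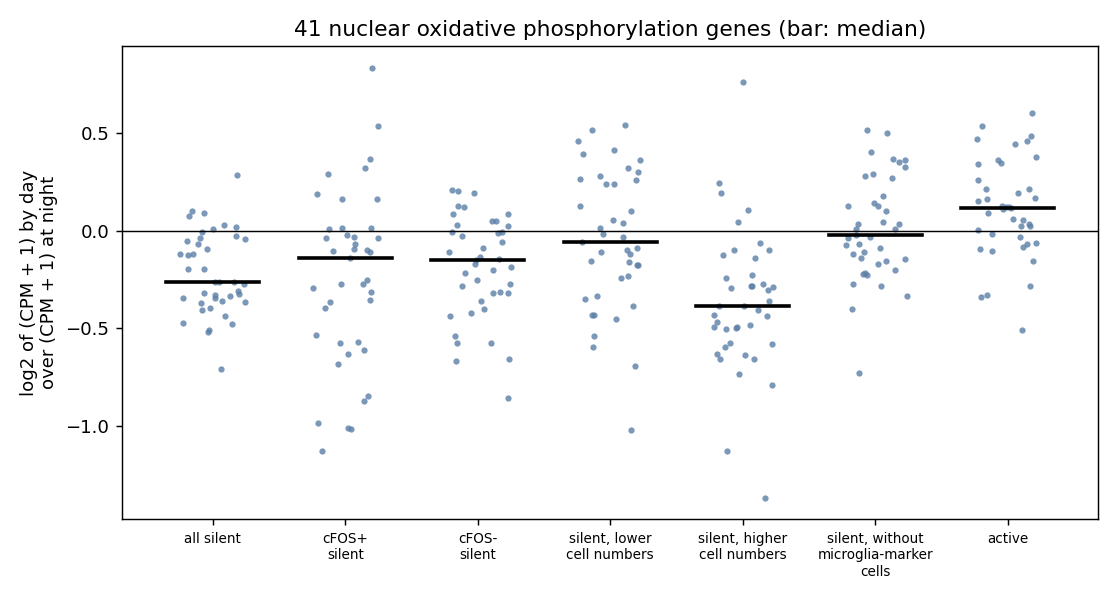
Log2 ratio of (CPM + 1) by day over night for 41 nuclear oxidative phosphorylation genes, 1 point per gene with the median as a bar, in all silent cells, in subsets of them and in active cells. The median is -0.26 in all silent cells, -0.39 among higher and -0.06 among lower cell numbers, -0.02 without cells that carry microglia markers, and 0.12 in active cells.

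Among genes of phosphate handling, which the title of the series names, Slc20a2, the sodium-phosphate importer PiT-2, ran from 0 to 393.3 CPM across day cells and from 0 to 1051 CPM across night cells, with medians of 0. Summed, it was at 34.8 CPM by day (34.2 to 35.4), against 84.7 CPM at night (83.9 to 85.5), or -1.26 on the log2 scale, with -2.60 among cFOS+ and -0.91 among cFOS- cells, and 6 day and 15 night cells reached 100 CPM. Among lower cell numbers the ratio was -0.49. The related importer Slc20a1 was at 159 against 86.0 CPM (0.88) and the exporter Xpr1 at 112 against 85.3 CPM (0.39), and 7 of the 11 measured genes of this list were higher by day. Secretory pathway genes were split, with 14 of 29 higher by day. Of 27 at 20 CPM or more none was 2-fold either way, beside 9.97% and 10.2% of all genes. The dense-core granule proteins Ptprn (307.3 against 480.8 CPM, -0.64) and Syt5 (-0.58) were lower by day and the prohormone convertase Pcsk2 (328.96 against 219.5 CPM, 0.58) and the amidating enzyme Pam (0.61) higher. Each kept its sign in both cFOS labels, as their choice required. Among heat shock and cold-inducible genes, 11 of 17 were higher by day (median 0.05), with 10 among cFOS+ and 5 among cFOS- cells. With the mean over cells the count was 8 (median -0.05). Cirbp, the cold-inducible RNA-binding protein that follows the daily temperature cycle, was lower by day, at 236.2 CPM by day, against 423.2 CPM at night (-0.84), with 35 of 49 day cells and 59 of 69 night cells at 100 CPM or more and ratios from -0.84 to -0.54 under every alternative run.

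Ranked by the smallest of 5 ratios (pool, mean over cells, without top cells, and each cFOS label), the genes highest by day were Crlf3, Sytl5, Car8, Rgs14, Prok2, Nxpe4, Gstt1, Oasl2, Pafah2, Shroom3, Th and Cecr2, with pooled log2 ratios from 3.49 (Th) to 5.01 (Crlf3). Crlf3, a cytokine receptor-like factor, was at 70.3 CPM by day, against 1.21 CPM at night, with 5 day cells and no night cell at 100 CPM. Rgs14, a G protein regulator, was at 23.5 against 0.02 CPM, and Th, tyrosine hydroxylase, an enzyme of dopamine synthesis, at 57.9 against 4.25 CPM. Th is also on the list used here as markers of neighbouring neurons, of which 2 of 3 measured were higher by day. Those lowest by day were Nov, Zfp11, Sst, Lin7a, Pdzd2, Slc29a2, Epb4.1l4b, Fam175a, Polr1b, Mvd, Aph1b and Rnf219, with ratios from -6.13 (Nov) to -3.82 (Rnf219); Fam175a had no read in any day cell and 23.2 CPM at night, or 6.84 CPM without the deepest night cell. Leaving that cell out also moved the ratio of Aph1b, -4.69, to -3.73, and leaving out S70 moved Nov to -5.20. Leaving out each group's top cell moved the ratio by over 1.5-fold for Rgs14 (3.82), Oasl2 (4.86), Pafah2 (3.42), Th (4.35), Cecr2 (4.42), Nov (-5.35), Sst (-5.20) and Aph1b (-5.65). The sign could not turn here, since the ranking took only genes with the same sign in all 5 ratios. Nov, a secreted matricellular protein, was at 0.12 CPM by day, against 77.6 CPM at night, with 8 night cells at 100 CPM and 49.6% of the night reads in 1 cell. Lin7a, a scaffold of synaptic junctions, was at 3.09 against 74.8 CPM, with 1 day and 13 night cells at 100 CPM. For none of the 24 did more than 13 cells of the higher group reach 100 CPM, and the median cell was at 0 in both groups.

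Markers of microglia were mostly higher by day in the pool, but not among lower cell numbers. Of 12 microglia markers 11 were higher by day (median 1.37, and 1.10 leaving out each group's top cell), with 11 among cFOS+ (median 3.11) and 8 among cFOS- cells (median 0.40). In active cells all 12 were higher by day (median 1.97), as were 9 of 10 astrocyte markers (median 1.16). The silent cFOS+ day value leaned on S408, with 34382 CPM of microglia markers summed, against 1713 CPM in the next silent cFOS+ day cell. S408 is among the higher cell numbers, and the top night cell, S263 with 17262 CPM, among the lower. The split by cell number was not repeated without them. Among lower cell numbers 6 of 12 were higher (median -0.09), and among higher ones 11 (median 2.49). P2ry12 was at 48.99 against 13.1 CPM, with ratios of -0.51 in the lower-numbered cells and 4.24 in the higher-numbered ones, and C1qc at 151 against 41.6 CPM. Their summed level ran from 0 to 34382 CPM across day cells (median 76.4) and from 0 to 17262 CPM across night cells (median 2.97), and 23 day cells (46.9%, 32.5 to 61.7%) and 22 night cells (31.9%, 21.2 to 44.2%) had at least 100 CPM. With those cells left out, the count of clock genes higher by day was 20 of 26 measured ones, and Nr1d1 was at 1.69, Ciart at 4.62, Arntl at -2.63 and Avp at 1.51. Of 10 astrocyte markers 8 were higher by day (median 1.03, 0.18 among cFOS+ cells, 0.26 after thinning, 0.54 leaving out each group's top cell and -0.14 without cells that carry microglia markers), and at least 100 CPM was found in 30 day (61.2%) and 41 night cells (59.4%). Oligodendrocyte markers were higher for 2 of 6, and 24 day and 34 night cells had at least 100 CPM of them. Cytokine genes, for which 5 of 14 were higher by day, had medians of 2.06 among cFOS+ and -2.02 among cFOS- cells. Their median was -1.67 among lower and 0.52 among higher cell numbers. Neuron markers were higher for 10 of 12 (median 0.12), with Snap25 at 1885 and 1756 CPM. The part of glial RNA in the single genes above was not tested beyond these values.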

How the data were processed

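The table used, as the authors deposited it, holds unnormalized read counts of 22800 gene symbols with 1 column per cell; normalized tables were not used. Libraries were made with Nextera XT, per the labels' protocols. STAR, DESeq2 and GRCm38.p4 appear in the submitters' processing notes, and the sources used here do not give versions, annotation, counting tool or strand, so reads of overlapping or near-identical genes may be split between symbols. The labels mention no molecular identifiers, and intervals cover counting error of reads only.

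For each group, the cells' counts were added and divided by the group total (CPM). A gene was called at 20 CPM or more in 1 group and at least 2-fold on the log2(CPM + 1) scale; list members needed 5 CPM in 1 group. Genes named were the 12 highest and 12 lowest by the smallest of 5 ratios, the clock genes, Fos, Slc20a1, Slc20a2, Xpr1, Vip and Avp, and up to 4 leading members of each list at 20 CPM or more. The highest, the lowest and the list members had to have the same sign in all 5 ratios. Where no member of a list did, those with the largest pooled ratios were taken. Genes named beyond this rule, among them Junb, Egr1, Arc, Nms, Gal, Grp, Trh, Cartpt, Nts, Adcyap1, Rasd1, Vipr2, Kcnk13, Snap25, Uqcrfs1, Gad1 and Slc32a1, were chosen after their values were seen. Some genes that this rule selects are counted in their lists but not reported here by name. Members and lists were chosen with earlier results of these data known. Lower and higher cell numbers were split at the median number, 360.5; the labels do not say what the numbers mean. Microglia-marker cells had 100 CPM or more of those markers. Positions are from GENCODE M21 (GRCm38). The calculation was tested on simulated counts with genes changed by a known fold. These were drawn with counting error only and no spread between cells beyond depth. They therefore cannot show how far single cells move a ratio. Python 3.11.15, pandas 2.3.3, scipy 1.17.1 and edgeR 4.0.16 (TMM only) were used. Alternatives were other scalings, pseudocounts, minimum levels, thinning and left-out cells.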

Additional observations from a re-analysis of the deposited data

Results flagged for a closer look

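Of 74 named genes called at 2-fold in silent cells, 9 were at least 2-fold apart the opposite way in active cells. The share over all genes was not computed, so the 9 cannot be set against it. Crlf3, Sytl5, Oasl2, Slc29a2 and Rnf219 were named as extremes of the silent comparison. Smaller differences of opposite sign were not counted. Each comparison has 1 sample per group, so the difference between them was not tested. The log2 ratio by day over night was 5.01 in silent and -1.57 in active cells for Crlf3, 4.52 and -3.00 for Sytl5, and 4.05 and -1.23 for Oasl2. It was -4.55 in silent and 1.10 in active cells for the nucleoside transporter gene Slc29a2, -3.82 and 1.03 for Rnf219, and -2.45 and 1.86 for Npy5r. The potassium channel gene Kcnj3 was at 2.27 in silent and -2.25 in active cells, the glutamate receptor gene Grin3a at -1.63 and 1.76, and the oligodendrocyte marker Olig1 at -1.70 and 4.36. Within silent cells, the median of the cytokine list was 2.06 among cFOS+ and -2.02 among cFOS- cells, which was not tested either. Of its 14 members measured, 7 reached 20 CPM in 1 group. The median over both labels, -0.42, was -1.67 among lower and 0.52 among higher cell numbers. It was -0.90 without cells carrying microglia markers.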

How the results depend on the processing

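No paired analysis was possible because the labels name no animal and no slice, and no test was run. Of 74 named genes at 2-fold or more, 63 had the same sign under all 15 alternatives, 14 of them planned and 1, without the deepest night cell, chosen after seeing the data. This count is partly fixed by the choice of genes. The extremes and list leaders were named for a sign that agreed over cells, without top cells and in both cFOS labels. Those settings could therefore not turn it, and other pseudocounts or minimum levels cannot turn any sign. No share over all genes was computed. Clock genes higher by day numbered 16 to 20, immediate early genes 19 to 28 and peptide genes 7 to 10. Of the genes at the minimum level, 9.97% were at least 2-fold higher by day; this was 6.70% when each group's top cell was left out (of 7655 genes), 13.3% with a lower minimum level (of 11866) and 17.5% among higher cell numbers (of 8859). The share at least 2-fold lower, 10.2%, was 14.4% with a lower minimum level, 17.8% among lower cell numbers (of 8759), 17.8% among higher ones and 17.1% without cells carrying microglia markers (of 8773). Past 2-fold also in both cFOS labels and without the top cell, the higher share of 3.26% was 4.11% with a lower minimum level and 6.12% among higher cell numbers. The lower share of 4.03% was 5.60% with a lower minimum level, 8.07% among lower and 7.64% among higher cell numbers and 7.23% without cells carrying microglia markers. Oxidative phosphorylation genes higher by day (7) were 18 among lower cell numbers and 20 without cells carrying microglia markers. Microglia markers higher by day (11) were 6 among lower cell numbers and 2 without those cells, where 2 reached the minimum level. The sign turned among lower cell numbers for Npy5r (1.61), Cacna1i (-0.021) and P2ry12 (-0.51). It turned among higher cell numbers for Sst (1.96), Ccl7 (0.064) and Olig1 (2.76). Without cells carrying microglia markers it turned for Csnk1d (0.45), Tshz2 (-0.43), C1qc (-0.076), Gfap (-0.14) and Ntsr2 (-1.11). Subsets hold fewer cells, which leaves fewer reads and cells per gene; beyond that the cause was not tested.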
